A study of Arabidopsis thaliana with 12 samples.

Results

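The genes described here are 1 heat shock transcription factor and 9 chaperones of Arabidopsis thaliana, taken from the count table by their identifiers, and they are 10 of the 34262 genes in the count table. They are HSFA2 (AT2G26150), HSP101 (AT1G74310), HSP90-1 (AT5G52640), HSP90-2 (AT5G56030), HSP70 (AT3G12580) and the small heat shock proteins HSP17.4 (AT3G46230), HSP17.6II (AT5G12020), HSP18.2 (AT5G59720), HSP22 (AT4G10250) and HSP23.6 (AT4G25200). Whole seedlings, grown at 23 °C and 5 days after germination, were kept for 2 h in 0.5x MS medium with Silwet and dexamethasone (DEX), and no heat treatment is named in the labels. Wild-type Col-0 and the WUS-GR line were compared, each in DEX with or without trichostatin A (TSA, 1 µM), an inhibitor of histone deacetylases, with 3 biological replicates in each of the 4 groups. WUS-GR carries pUBI10::mCherry-GR-linker-WUS, which drives the stem cell regulator WUSCHEL, joined to the hormone-binding part of a rat glucocorticoid receptor (GR), from a ubiquitous promoter, and is 1 homozygous single-insertion line. The labels give DEX at 25 µM and the study's methods another concentration. All 12 libraries received DEX, so a difference between WUS-GR and Col-0 includes any other difference between the lines.

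Heat shock factors (HSFs) are trimeric transcription factors that bind heat shock elements, inverted repeats of GAA units, in the promoters of chaperone genes. HSP90 matures signalling proteins and HSP70 folds nascent and damaged chains. HSP101 pulls proteins out of aggregates and small heat shock proteins hold unfolding proteins until the other chaperones act. The GR domain fused to WUS is itself an HSP90 client in animal cells, where it is kept in the cytosol until a ligand such as DEX binds.

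The sequence upstream of the members was read from the TAIR10.1 assembly, as 250 bases before to 50 bases after each annotated gene start, and searched for the element of 3 alternating units, GAA-NN-TTC-NN-GAA or TTC-NN-GAA-NN-TTC without the hyphens, on both strands. This match was present in 3 of the 10 windows and in 132 of the 27443 windows of protein-coding genes (0.481%). The matches are shown because they separate HSFA2, HSP70 and HSP17.4 from the other 7 genes by sequence alone. The 13 matched bases are in capitals, 5′ to 3′ on the strand of the gene.
HSFA2: ttagtaacGAAGTTTCTGGAAcattgtctt
HSP70: ttactcgtGAACGTTCTCGAAagctctttg
HSP17.4, upstream match: tcaacataGAAGCTTCTTGAAgccacctga
HSP17.4, match at the start: agaaacctGAAATTTCAAGAAacttgcaga
The printed stretches are chr2:11135528-11135557 (plus strand) for HSFA2, chr3:3993845-3993874 (minus strand) for HSP70, and chr3:16984945-16984974 and chr3:16984864-16984893 (minus strand) for HSP17.4. The match began 88 bases upstream of the annotated start in HSFA2 (position -88), at positions -99 and -18 in HSP17.4, and 21 bases downstream in HSP70. The shorter elements of 2 units, GAA-NN-TTC or TTC-NN-GAA, which lie within the longer element and were also counted alone, were found in 5 of the 10 windows (HSFA2, HSP101, HSP70, HSP17.4 and HSP23.6) against 19.3% of all windows. A missing match says only that these letters are absent from the 300 bases searched.

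Total counts ran from 14810658 to 21578662 per library, and the WUS count, 27 to 52 over the 6 Col-0 libraries, reached 94664 to 142276 over the 6 WUS-GR libraries, in the direction of the labels. Levels are given as CPM, the counts of a gene scaled to the TMM-adjusted size of its library. Differences are log2 fold changes from edgeR's quasi-likelihood test, with p adjusted over all genes tested and a threshold of 0.05. Their standard error (SE) was calculated as the size of the log2 fold change divided by the square root of the test's F statistic. The mean TMM factor was 0.845 in WUS-GR with TSA and between 1.00 and 1.12 in the other groups. The 10 genes took 0.502% ± 0.0595 of all counts in Col-0 with DEX, 0.394% ± 0.0325 in WUS-GR with DEX, 0.543% ± 0.0161 in Col-0 with TSA and 0.560% ± 0.0130 in WUS-GR with TSA (SD, n = 3). The summed level of 5 green tissue markers moved with the groups, from 9267 to 12716 CPM in Col-0 with DEX, 12145 to 15533 in WUS-GR with DEX, 13082 to 16556 in Col-0 with TSA and 21793 to 22450 in WUS-GR with TSA. LHCB1.3 made up most of this sum, at 8296 ± 1399, 10914 ± 1530, 10997 ± 1434 and 16876 ± 212 CPM in the same order (SD, n = 3). The markers did not all move alike, since from Col-0 to WUS-GR in DEX RBCS1A went from 1187 ± 179 to 1004 ± 53.3 CPM while CA1 lay between 14.6 and 16.4 CPM in Col-0 and between 70.5 and 83.2 CPM in WUS-GR. The summed level of 5 root markers, of which 3 exceeded 3 counts in every library, ranged from 12.1 to 28.0 CPM, and 0 of 7 seed markers did so. In whole seedlings, fewer cells of a type and less RNA per cell cannot be told apart. The part of the green tissue and root markers' changes in the results below was not tested.

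The first comparison asked which transcripts differed between WUS-GR and Col-0 in DEX alone. Both HSP90 genes and 3 of the 5 small heat shock protein genes were lower in WUS-GR, by 1.26-fold to 3.35-fold, while no difference passed the test for HSFA2, HSP101, HSP70, HSP18.2 and HSP22. Of the 10 genes, 0 were higher and 5 were lower, beside 29.3% higher and 28.6% lower, or 57.9% in either direction, among the 17285 genes tested. The median log2 fold change was -0.36 over the 10 genes and 0.02 over all genes. The libraries of the 2 groups did not overlap for the same 5 genes, beside 64.9% of all genes. The second comparison asked how TSA altered the transcripts in Col-0. TSA lowered HSFA2, HSP17.4, HSP17.6II, HSP22 and HSP23.6 by 3.61-fold to 9.47-fold and raised HSP90-2 and HSP70, so 2 of the 10 were higher and 5 lower, beside 31.7% and 32.5%, or 64.2% in either direction, of all genes. The median was -1.23 over the 10 genes and 0.00 over all genes. The groups did not overlap for 8 of the 10, HSP101 included, beside 69.0% of all genes.

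In WUS-GR, TSA changed all 10 genes in the 6-library fit: HSFA2 and the 5 small heat shock protein genes were lower and HSP101, HSP90-1, HSP90-2 and HSP70 were higher. Among all genes, 35.6% were higher and 38.1% lower, 73.7% in either direction, and 75.9% did not overlap between the groups, as did all 10 members. The median was -0.76 over the members and -0.03 over all genes. Between the genotypes in DEX and TSA, HSP101, HSP90-2, HSP70 and HSP23.6 were higher in WUS-GR and HSP90-1 and HSP17.6II lower, which is 4 and 2 of the 9 members tested beside 27.0% and 27.8%, or 54.8% in either direction, of all genes. The 2 groups did not overlap for those 6 genes, beside 62.1% of all genes, and the median was 0.21 over the 9 members and -0.01 over all genes. HSP22 had too few counts to be tested there in the main fit. The comparisons share libraries in pairs, so their values are set side by side and not read as repeats of each other.

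**Figure D1:**
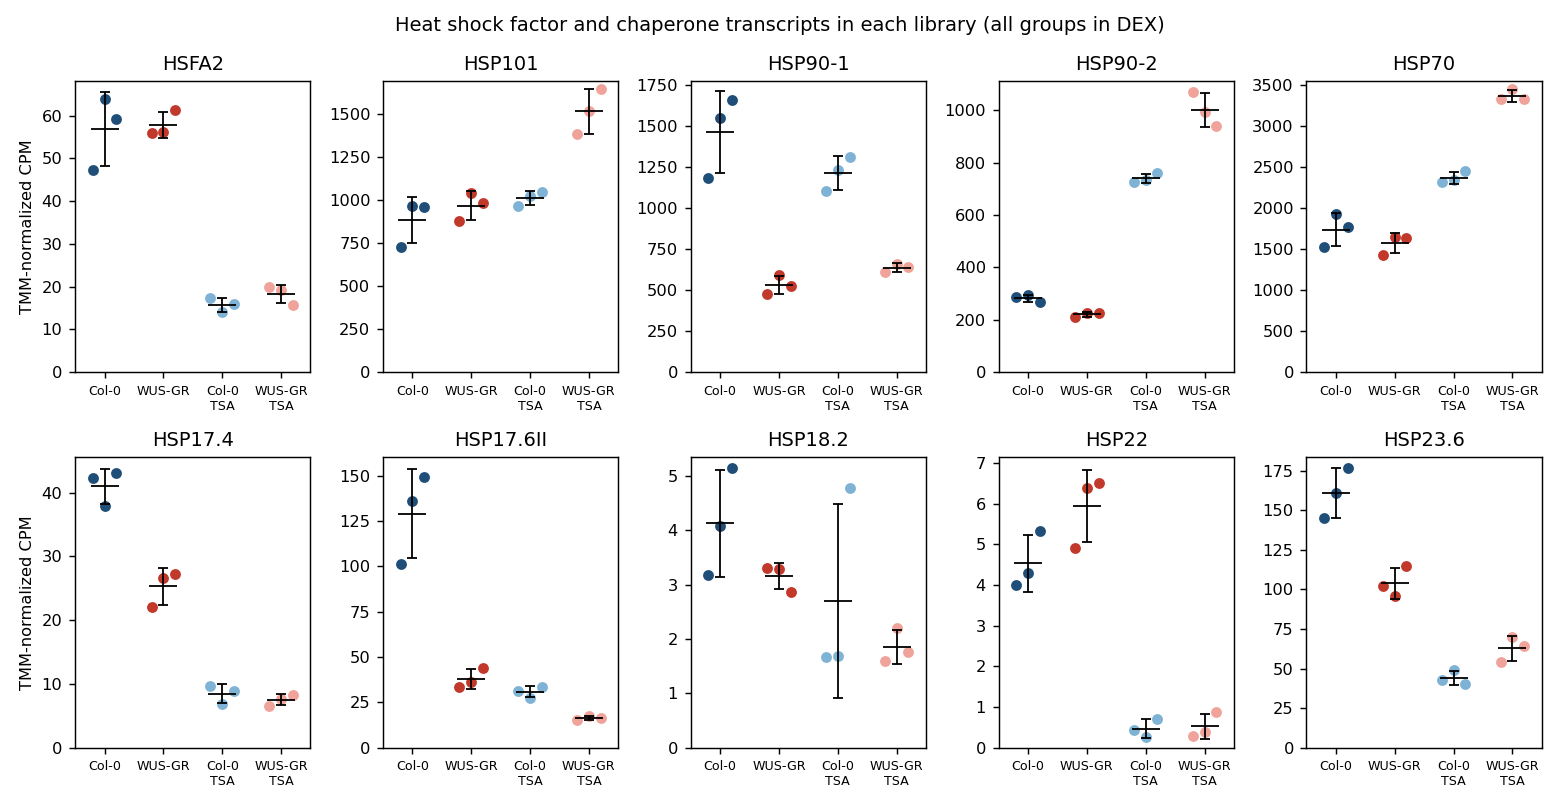
TMM-normalized CPM (vertical axes, each starting at 0) of the 10 genes in every library, in Col-0 and WUS-GR with DEX alone or with TSA. Points are replicates, horizontal bars means and error bars 1 SD (n = 3). HSFA2 lay between 47.3 and 64.0 CPM without TSA and between 14.0 and 19.8 CPM with it.

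HSFA2 encodes a heat-inducible HSF that sustains chaperone transcription during recovery from heat. It lies on chromosome 2 at 11135624 to 11137792 (TAIR10.1) with an exonic length of 1876 bases. Its level was 47.3, 64.0 and 59.3 CPM in the 3 Col-0 libraries with DEX alone, against 56.0, 56.1 and 61.3 CPM in WUS-GR with DEX. TSA libraries held 17.3, 14.0 and 15.9 CPM in Col-0, against 19.8, 19.1 and 15.8 CPM in WUS-GR. Every library with TSA was thus below every library without it, and the genotypes overlapped under both treatments. HSFA2 fell with TSA 3.61-fold in Col-0 (log2 fold change -1.85, SE 0.13, adjusted p = 3.78e-07) and 3.20-fold in WUS-GR (-1.68, SE 0.10, adjusted p = 2.36e-08). The difference between genotypes was 0.04 (SE 0.11, adjusted p = 0.745) in DEX and 0.21 (SE 0.12, adjusted p = 0.169) with TSA, and the interaction, the TSA effect in WUS-GR minus that in Col-0, was 0.20 (SE 0.17, adjusted p = 0.398). Scaled to library totals alone, the genotype difference with TSA was -0.02 and the interaction -0.13.

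HSP101 encodes the hexameric ClpB-type disaggregase of the cytosol and nucleus, which is needed for acquired thermotolerance. The gene lies on chromosome 1 at 27936508 to 27940369. In DEX its level was 728, 966 and 959 CPM in Col-0, against 877, 1043 and 984 CPM in WUS-GR, and the groups overlapped. Under TSA the level was 967, 1023 and 1046 CPM in Col-0, against 1384, 1520 and 1643 CPM in WUS-GR, and all 3 WUS-GR libraries with TSA were above the other 9. HSP101 rose with TSA 1.54-fold in WUS-GR (0.63, SE 0.08, adjusted p = 2.78e-05), while in Col-0 the difference was 0.20 (SE 0.12, adjusted p = 0.150). With TSA, WUS-GR was 1.49-fold above Col-0 (0.57, SE 0.09, adjusted p = 1.89e-04). The interaction of 0.45 (SE 0.15, adjusted p = 0.0353) passed the threshold in 10 of 18 alternatives, was 0.12 with library totals alone and had an adjusted p of 0.0535 to 0.0980 without any 1 of 7 libraries, which include replicates of all 4 groups. The gene AT1G74300 on the opposite strand overlaps 101 exonic bases of HSP101, and the whole of AT1G74300 held 14 to 41 counts per library.

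HSP90-1 is the heat-inducible cytosolic HSP90 and HSP90-2 a cytosolic HSP90 made without stress. HSP90-1 (chromosome 5, 21352557 to 21355147) was at 1180, 1549 and 1654 CPM in Col-0 with DEX, against 478, 588 and 522 CPM in WUS-GR with DEX. The libraries with TSA gave 1102, 1230 and 1308 CPM for Col-0 and 610, 660 and 639 CPM in WUS-GR. The 6 WUS-GR libraries were therefore all below the 6 Col-0 libraries. WUS-GR was 2.72-fold lower in DEX (-1.44, SE 0.13, adjusted p = 1.17e-05) and 1.92-fold lower with TSA (-0.94, SE 0.09, adjusted p = 3.19e-06). The TSA difference was -0.26 in Col-0 (SE 0.13, adjusted p = 0.0929) and 0.25 in WUS-GR (SE 0.08, adjusted p = 0.0167). In Col-0 it passed in 3 of 13 alternatives, at -0.35 with library totals alone, -0.25 with a replicate block and -0.40 without Col-0 replicate 1 in DEX (adjusted p = 0.0251, 0.0494 and 0.00633). The rise in WUS-GR was -0.14 (adjusted p = 0.155) with library totals alone, and it missed the threshold in the single fit of all 12 libraries and without WUS-GR replicate 1 in DEX or replicate 2 with TSA (adjusted p = 0.0512, 0.0872 and 0.0574). The interaction of HSP90-1 was 0.53 (SE 0.16, adjusted p = 0.0213) and passed in 12 of 18 alternatives.

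HSP90-2 (chromosome 5, 22686473 to 22689671) was in DEX at 285, 295 and 267 CPM in Col-0, against 209, 226 and 224 CPM in WUS-GR. It reached 728, 733 and 761 CPM with TSA in Col-0, against 1069, 992 and 941 CPM in WUS-GR. No groups overlapped, and the order of the genotypes was opposite without and with TSA. HSP90-2 rose with TSA 2.63-fold in Col-0 (1.40, SE 0.09, adjusted p = 1.48e-07) and 4.49-fold in WUS-GR (2.17, SE 0.08, adjusted p = 6.43e-10). It was 1.26-fold lower in WUS-GR in DEX (-0.34, SE 0.07, adjusted p = 0.00292) and 1.34-fold higher with TSA (0.42, SE 0.08, adjusted p = 0.00102). The higher value with TSA was 0.19 with library totals alone (adjusted p = 0.0621). The interaction was 0.80 (SE 0.10, adjusted p = 4.72e-05) and passed in all 18 alternatives, from 0.47 to 0.84. Of the 50-base stretches of HSP90-2, 18.3% also occur in other genes, mostly in its neighbour HSP90.3 (AT5G56010), so its count is uncertain to the extent that such reads were split. HSP90.3 averaged 118 ± 5.99 CPM in Col-0 with DEX, against 136 ± 3.34 CPM in WUS-GR, and 313 ± 23.0 and 631 ± 74.6 CPM with TSA (SD, n = 3). In DEX, HSP90.3 was higher in WUS-GR (0.23, SE 0.07, adjusted p = 0.0168), unlike HSP90-2.

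HSP70 (AT3G12580) is a heat-inducible cytosolic member of the HSP70 family, on chromosome 3 at 3991117 to 3993886. In DEX its level was 1519, 1920 and 1765 CPM in Col-0, against 1425, 1646 and 1628 CPM in WUS-GR, and these groups overlapped. TSA libraries reached 2311, 2339 and 2442 CPM in Col-0, against 3325, 3442 and 3319 CPM in WUS-GR, with no overlap between any of these and the libraries without TSA. HSP70 rose with TSA 1.37-fold in Col-0 (0.45, SE 0.10, adjusted p = 0.00264) and 2.12-fold in WUS-GR (1.08, SE 0.07, adjusted p = 9.66e-08). The genotypes differed by -0.12 in DEX (SE 0.10, adjusted p = 0.341), and WUS-GR was 1.41-fold higher with TSA (0.50, SE 0.08, adjusted p = 3.34e-04). The interaction was 0.65 (SE 0.13, adjusted p = 0.00129) and passed in all 18 alternatives, from 0.33 to 0.74.

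**Figure D2:**
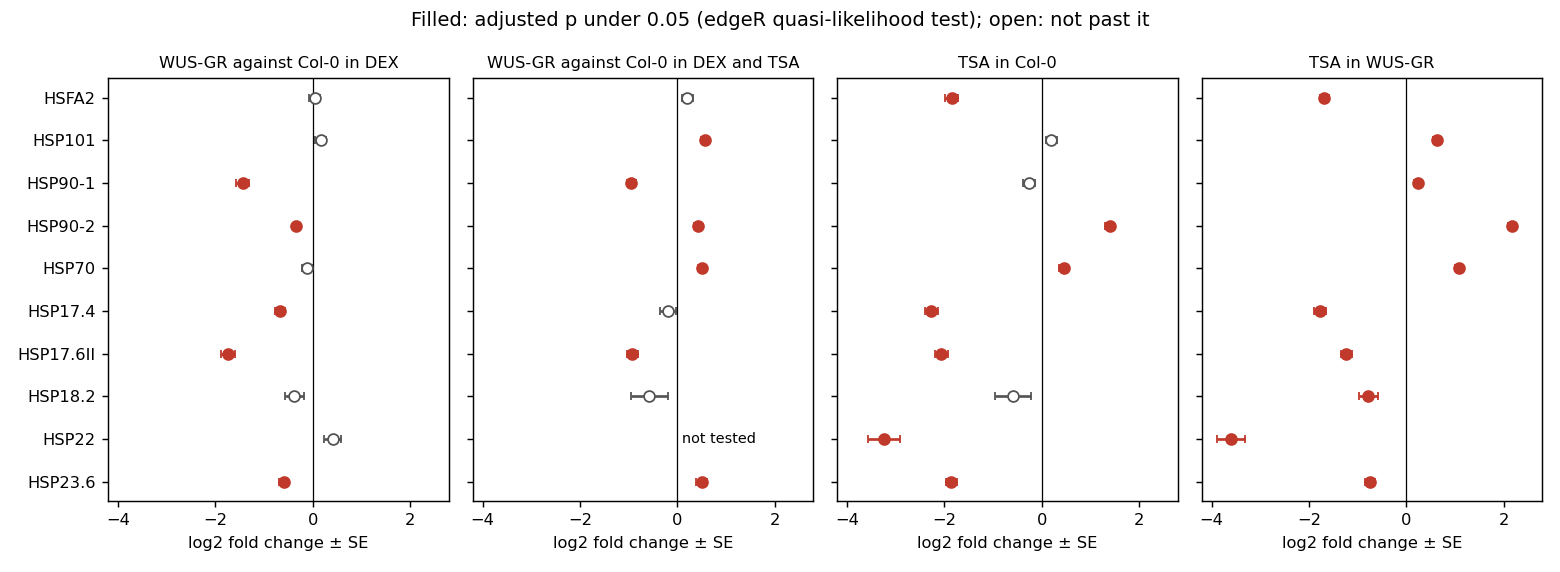
Log2 fold changes (horizontal axes) of the 10 genes in 4 comparisons, with bars of 1 SE. Filled points passed an adjusted p of 0.05 in edgeR's quasi-likelihood test. TSA lowered HSFA2, HSP17.4, HSP17.6II, HSP22 and HSP23.6 in both genotypes and raised HSP90-2 and HSP70 in both.

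Small heat shock proteins bind unfolding proteins without using ATP. HSP17.4 and HSP18.2 are cytosolic proteins of class I, HSP17.6II is a cytosolic protein of class II, HSP22 is targeted to the endoplasmic reticulum and HSP23.6 to mitochondria. HSP17.6II (chromosome 5, 3882231 to 3883111) had 1626, 2948 and 3150 counts in Col-0 and 728, 831 and 989 in WUS-GR with DEX, or 129 ± 24.5 and 37.9 ± 5.29 CPM. The libraries with TSA held 571, 541 and 707 counts in Col-0 and 263, 307 and 204 in WUS-GR, or 30.8 ± 2.98 and 16.4 ± 0.920 CPM (SD, n = 3). The genotypes did not overlap under either treatment. WUS-GR was 3.35-fold lower in DEX, the largest difference of the 10 genes in that comparison (-1.74, SE 0.15, adjusted p = 6.71e-06), and 1.89-fold lower with TSA (-0.92, SE 0.11, adjusted p = 1.56e-05). TSA lowered HSP17.6II 4.16-fold in Col-0 (-2.06, SE 0.14, adjusted p = 3.14e-07) and 2.34-fold in WUS-GR (-1.23, SE 0.11, adjusted p = 6.68e-07). The interaction was 0.86 (SE 0.19, adjusted p = 0.00323) and passed in all 18 alternatives. Its neighbour HSP17.6A (AT5G12030), also of class II, was lower in WUS-GR in DEX (-1.23, SE 0.14, adjusted p = 4.82e-05) and with TSA in Col-0 (-2.25, SE 0.14, adjusted p = 1.71e-07), with an interaction of 0.08 (SE 0.18, adjusted p = 0.777). HSP17.6II and the other genes share no 50-base stretch.

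HSP23.6 (chromosome 4, 12916926 to 12918110) was in DEX at 145, 161 and 177 CPM in Col-0, against 102, 95.8 and 115 CPM in WUS-GR. Addition of TSA left 42.5, 49.2 and 40.4 CPM in Col-0, against 54.3, 70.2 and 64.2 CPM in WUS-GR. As for HSP90-2, no groups overlapped and the order of the genotypes was opposite without and with TSA. WUS-GR was 1.52-fold lower in DEX (-0.60, SE 0.10, adjusted p = 4.94e-04) and 1.42-fold higher with TSA (0.50, SE 0.11, adjusted p = 0.00215), a value that was 0.27 with library totals alone (adjusted p = 0.0617). TSA lowered HSP23.6 3.64-fold in Col-0 (-1.86, SE 0.11, adjusted p = 1.08e-07) and 1.68-fold in WUS-GR (-0.75, SE 0.10, adjusted p = 3.76e-05). The interaction of 1.14 (SE 0.16, adjusted p = 6.49e-05) was the largest of the 10 and passed in all 18 alternatives, from 0.81 to 1.23.

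HSP17.4 (chromosome 3, 16984118 to 16984867) had 677, 819 and 912 counts in Col-0 and 478, 607 and 616 in WUS-GR with DEX, or 41.0 ± 2.75 and 25.3 ± 2.88 CPM (SD, n = 3). With TSA the counts were 175, 133 and 189 in Col-0 and 112, 135 and 104 in WUS-GR, or 6.78 to 9.66 CPM and 6.61 to 8.32 CPM. The genotypes were separate in CPM in DEX and overlapped with TSA. WUS-GR was lower in DEX (log2 fold change -0.67, SE 0.10, adjusted p = 2.91e-04), and with TSA the difference was -0.19 (SE 0.16, adjusted p = 0.349), or -0.41 (adjusted p = 0.0415) with library totals alone. TSA lowered HSP17.4 4.83-fold in Col-0 (-2.27, SE 0.13, adjusted p = 9.66e-08) and 3.42-fold in WUS-GR (-1.77, SE 0.12, adjusted p = 6.94e-08). The interaction of 0.52 (SE 0.19, adjusted p = 0.0442) missed the threshold in 10 of 18 alternatives, 8 of which left out 1 library from any of the 4 groups, with adjusted p up to 0.407. The gene AT3G07365 overlaps 453 bases of HSP17.4 on the opposite strand and had 0 counts in every library. Of the 50-base stretches of HSP17.4, 61.5% also occur in other genes when both strands are read, with AT3G07365 sharing the most. This share includes the stretches of the overlap itself, so it does not measure repeats elsewhere in the genome. How reads in the overlap were counted is not given in the sources used here, so the count of HSP17.4 and its level per length are uncertain.

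HSP22 (chromosome 4, 6370338 to 6371372) and HSP18.2 (chromosome 5, 24062323 to 24063300) were the lowest of the 10. HSP22 had 64, 93 and 113 counts in Col-0 and 107, 146 and 147 counts in WUS-GR with DEX. With TSA it had 8, 5 and 15 counts in Col-0 and 5, 7 and 11 in WUS-GR. All 6 libraries with TSA were below 1 CPM and all 6 without it between 3.99 and 6.50 CPM. HSP22 fell with TSA 9.47-fold in Col-0 (-3.24, SE 0.32, adjusted p = 4.33e-06) and 12.1-fold in WUS-GR (-3.60, SE 0.29, adjusted p = 3.57e-07), the largest changes of the 10 genes in those comparisons, with an interaction of -0.33 (SE 0.52, adjusted p = 0.673). In DEX the genotype difference was 0.41 (SE 0.17, adjusted p = 0.0648), and it passed without Col-0 replicate 3 or WUS-GR replicate 1 (0.54 and 0.53, adjusted p = 0.0257 and 0.0336) and with library totals alone (0.47, adjusted p = 0.0365).

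HSP18.2 had 51, 88 and 109 counts in Col-0, against 72, 75 and 65 in WUS-GR, with DEX. Under TSA it had 30, 33 and 101 counts in Col-0 and 27, 39 and 22 in WUS-GR, so that Col-0 replicate 3 stood at 4.77 CPM where the other 5 libraries with TSA lay between 1.59 and 2.21 CPM. In WUS-GR it was 1.71-fold lower with TSA (-0.78, SE 0.20, adjusted p = 0.00392), with an adjusted p of 0.0674 in the single fit of all 12 libraries. In Col-0 the TSA difference was -0.60 (SE 0.37, adjusted p = 0.172), and -1.30 (SE 0.27, adjusted p = 0.00258) without that replicate. The genotypes differed by -0.38 in DEX (SE 0.20, adjusted p = 0.131) and by -0.57 with TSA (SE 0.39, adjusted p = 0.234). The first passed without Col-0 replicate 1 (-0.52, adjusted p = 0.0366) and the second was 0.15 (adjusted p = 0.679) without Col-0 replicate 3 in TSA. The interaction was -0.16 (SE 0.48, adjusted p = 0.834).

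The interaction tested whether the effect of TSA differed between the genotypes, over all 12 libraries. It passed for 7 of the 10 genes, and in each of the 7 the value was positive, that is, TSA raised the transcript more or lowered it less in WUS-GR than in Col-0. Among the 17915 genes tested, 17.7% had a positive and 13.3% a negative interaction past the threshold, 31.0% in all. The median interaction was 0.53 over the 10 genes and 0.00 over all genes. With library totals alone, which shift the median of all genes by -0.32, the interaction passed for 4 genes, namely HSP90-2, HSP70, HSP17.6II and HSP23.6, and all 4 were positive. The same 4 genes passed when Col-0 replicate 3 in DEX, WUS-GR replicate 1 in DEX or WUS-GR replicate 2 with TSA was left out.

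**Figure D3:**
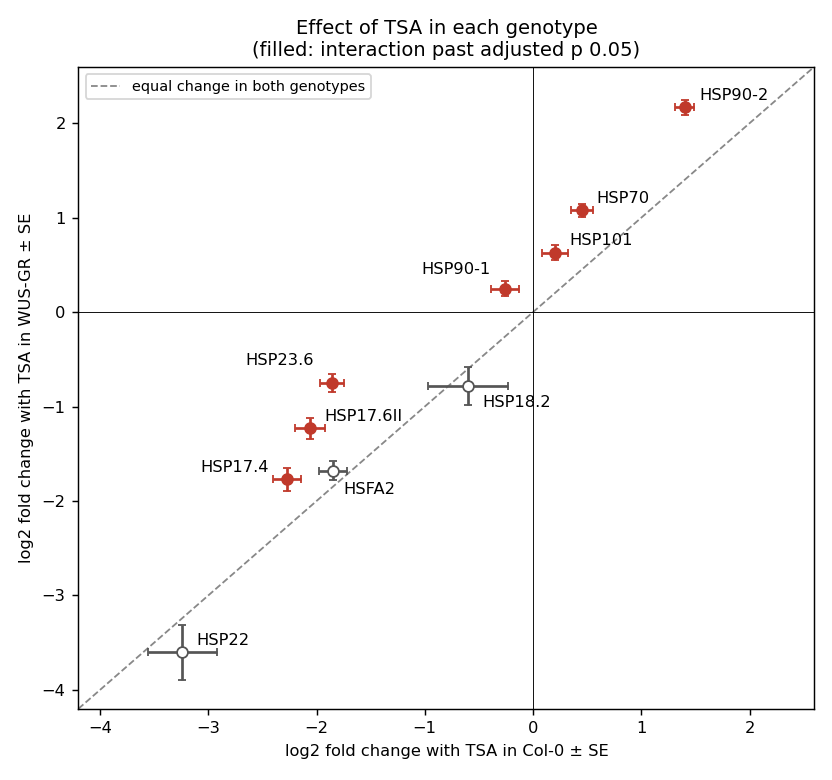
Log2 fold change with TSA in Col-0 (horizontal axis) against that in WUS-GR (vertical axis) for the 10 genes, with bars of 1 SE and a dashed line of equal change. Filled points passed the interaction test at an adjusted p of 0.05. The 7 filled points lie above the line, with HSP23.6 farthest from it at an interaction of 1.14.

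Levels of different genes were compared as CPM per kilobase of exon. The place of HSP17.4 in these orders is uncertain, since 453 of its bases overlap a gene on the opposite strand. In Col-0 with DEX the order was HSP90-1 at 695 ± 118 and HSP70 at 688 ± 80.2, which overlapped, then HSP101 at 263 ± 40.3. HSP23.6 at 154 ± 15.3 and HSP17.6II at 146 ± 27.8 overlapped, and HSP90-2 at 98.1 ± 4.95, HSP17.4 at 56.7 ± 3.80 and HSFA2 at 30.3 ± 4.59 followed without overlap. HSP22 at 4.39 ± 0.677 and HSP18.2 at 4.22 ± 1.00 were last and overlapped (SD, n = 3). In WUS-GR with DEX, HSP70 led at 622 ± 48.7 CPM per kilobase, while HSP101 at 288 ± 25.1 and HSP90-1 at 252 ± 26.2 overlapped. HSFA2 was at 30.8, from 29.9 to 32.7, close below HSP17.4 at 34.9 ± 3.98, with which it overlapped.

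With TSA the order shifted towards HSP90-2. It was sixth in Col-0 with DEX and the fourth highest in Col-0 with TSA at 258 ± 6.27 CPM per kilobase, after HSP70 at 938 ± 27.4, HSP90-1 at 577 ± 49.5 and HSP101 at 301 (from 288 to 311), with no overlap between these 4. In WUS-GR with TSA, HSP90-2 was the third highest at 348 ± 22.3, above HSP90-1 at 303 ± 11.8 and below HSP70 at 1334 ± 27.4 and HSP101 at 451 ± 38.6. HSP22 was the lowest in both groups with TSA, at 0.452 ± 0.220 and 0.506 ± 0.302. HSFA2 had the eighth highest mean of the 10 in every group, but in both WUS-GR groups it overlapped HSP17.4 above it, which with TSA ran from 9.13 to 11.5 where HSFA2 ran from 8.44 to 10.5.

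The other genes of the same families were counted on lists chosen by function. The background for each list is the share of all tested genes that passed in either direction, 57.9% between genotypes in DEX, 54.8% between genotypes with TSA, 64.2% for TSA in Col-0, 73.7% for TSA in WUS-GR and 31.0% for the interaction. Of the HSF family, 16 of 21 genes were tested in DEX, with 6 higher and 5 lower in WUS-GR (median log2 fold change 0.06). The largest differences were those of HSFA1E, a master HSF of the A1 group (1.54, SE 0.13, adjusted p = 7.74e-06), and HSFB4, an HSF of the repressor class B (-4.08, SE 0.62, adjusted p = 3.42e-04). HSFB4 had 47, 64 and 29 counts in Col-0 and 7, 2 and 0 in WUS-GR, so the size of its difference rests on few counts. With TSA in Col-0, 3 of 17 were higher and 11 lower (median -0.84), with HSFA1E higher (2.56, SE 0.14, adjusted p = 6.17e-08) and HSFA4A lower (-2.23, SE 0.12, adjusted p = 7.43e-08). In WUS-GR, 4 of 16 were higher and 10 lower with TSA (median -0.80). HSFA2 was thus among the HSFs that fell with TSA, while HSFA1E rose in both genotypes. The interaction passed for 5 positive and 1 negative of 17 HSF genes, the negative being HSFA1E (-0.58, SE 0.16, adjusted p = 0.0119), and for 1 positive and 4 negative with library totals alone, where the median of 0.24 became -0.08. The HSF shares were 68.8% in DEX, 82.4% for TSA in Col-0, 87.5% for TSA in WUS-GR and 35.3% for the interaction.

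Of the 19 small heat shock protein genes, 2 of 18 tested were higher and 12 lower in WUS-GR in DEX (median -0.61), with AT4G21870, of the HSP20-like class, at -4.81 (SE 0.37, adjusted p = 3.70e-06). With TSA in Col-0, 1 of 18 was higher and 12 were lower (median -1.78), the single rise being that of AT4G21870 (0.34, SE 0.10, adjusted p = 0.00946), and in WUS-GR 5 of 19 were higher and 13 lower (median -0.78). Without the 5 members, the Col-0 counts were 1 higher and 8 lower of 13. The small heat shock protein shares were 77.8% in DEX, 72.2% with TSA in Col-0 and 94.7% with TSA in WUS-GR. These lists hold the members themselves and were chosen with earlier results of these data known.

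The HSP90 list showed the opposite pattern with TSA. In Col-0, 4 of 7 were higher and 1 lower (median 0.94), the lower being the chloroplast HSP90.5 (-0.39, SE 0.09, adjusted p = 0.00260). In WUS-GR, 7 of 7 were higher with TSA (median 1.21), and 5 of 7 were higher and 0 lower with library totals alone. Between the genotypes, 3 were higher and 2 lower in DEX, the 2 lower being HSP90-1 and HSP90-2, and 6 were higher and 1 lower with TSA, the lower being HSP90-1. The interaction passed for 5 of 7, all positive (median 0.80), and with library totals alone 4 were positive and 1 negative. On a list of 7, the share was 71.4% in DEX, with TSA in Col-0 and for the interaction.

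Of the HSP70 and HSP110 list, 3 of 16 genes were higher and 7 lower in WUS-GR in DEX (median -0.19), with HSC70-1, an abundant constitutive HSP70, lower (-0.90, SE 0.08, adjusted p = 1.10e-05) and HSP70-2 higher (1.48, SE 0.12, adjusted p = 4.20e-06). With TSA, 6 were higher and 8 lower in Col-0 (median -0.13) and 10 higher and 4 lower in WUS-GR (median 0.56). Between the genotypes with TSA, 10 were higher and 0 lower (median 0.39), against 7 higher and 3 lower with library totals alone. The interaction passed for 14 of 16, all positive (median 0.68), and for 8 positive and 0 negative with library totals alone. The shares were 62.5% between genotypes in DEX and with TSA, and 87.5% for TSA in either genotype and for the interaction. HSP70-type genes are close paralogs of each other, and how reads matching more than 1 of them were counted is not stated.

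The HSP100 list held HSP101 and 2 other tested genes, CLPB3 and CLPB4. Its shares were 0% between genotypes in DEX, 33.3% for TSA in Col-0 and 66.7% for TSA in WUS-GR. They stand beside 57.9%, 64.2% and 73.7% of all genes. CLPB3 passed in none of the comparisons, at 0.12 for TSA in Col-0 (SE 0.10, adjusted p = 0.341) and 0.05 in WUS-GR (SE 0.10, adjusted p = 0.628). CLPB4, the mitochondrial relative of HSP101, fell with TSA in Col-0 (-1.91, SE 0.13, adjusted p = 2.47e-07) and in WUS-GR (-1.45, SE 0.07, adjusted p = 9.38e-09), where HSP101 rose. Of the co-chaperones and other heat response genes, 6 of 21 were higher and 8 lower in WUS-GR in DEX, and with TSA 3 were higher and 9 lower in Col-0 and 9 higher and 8 lower in WUS-GR. The shares of 66.7%, 57.1% and 81.0% stand beside 57.9%, 64.2% and 73.7% of all genes. The last split was 5 higher and 12 lower with library totals alone. AT2G20560, which encodes a DNAJ heat shock protein, fell with TSA in both genotypes (-2.18 in Col-0, SE 0.13, adjusted p = 1.48e-07, and -2.31 in WUS-GR, SE 0.10, adjusted p = 2.87e-09).

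**Figure D4:**
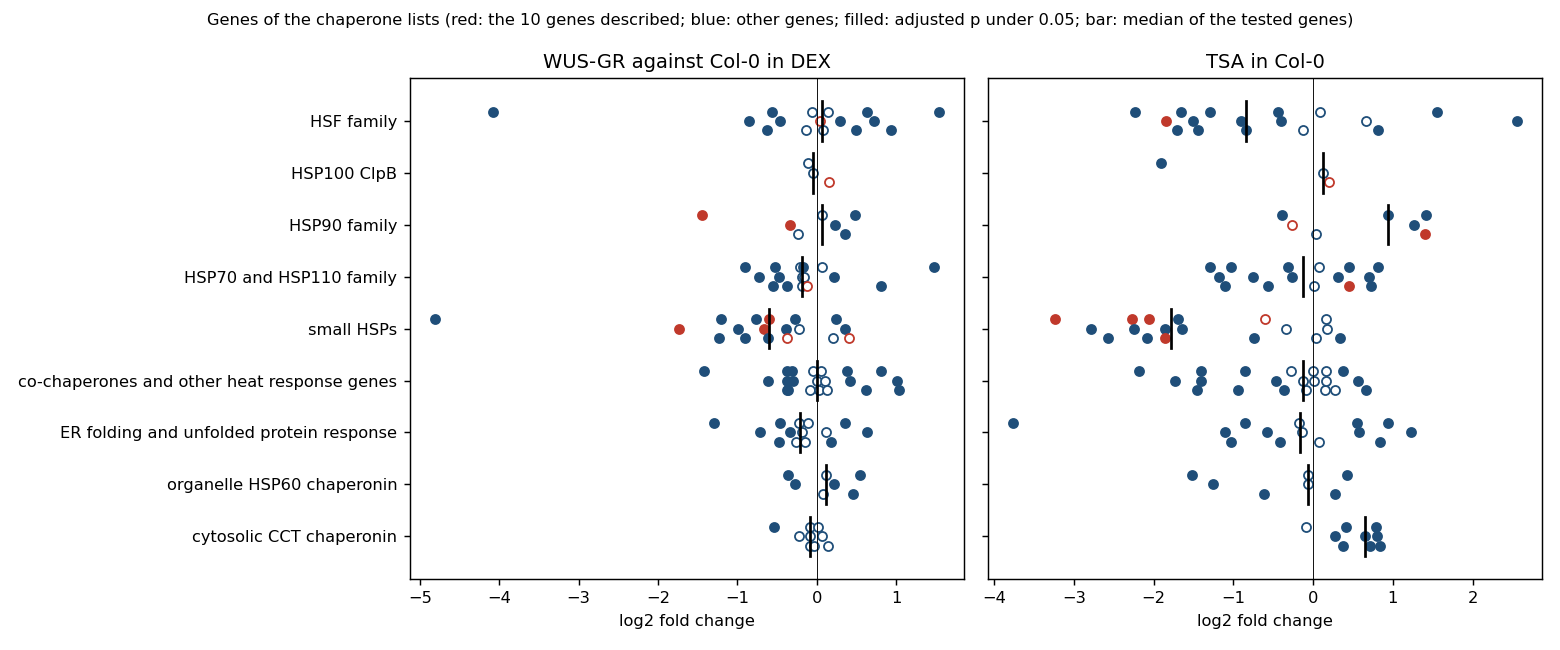
Log2 fold changes (horizontal axes) of the genes on 9 chaperone lists, for WUS-GR against Col-0 in DEX and for TSA in Col-0. Red points are the 10 genes described, blue points other genes, filled points passed an adjusted p of 0.05, and vertical bars are list medians. The small heat shock protein median lies at -0.61 and -1.78 and the HSP90 median at 0.06 and 0.94.

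HSFA2 was compared with other genes by the Pearson correlation of log2(CPM + 0.5) over the 12 libraries. The ranking left out the other members and genes with a low mean level. It is a description, since the libraries share their groups and scaling. The highest values were those of ERDJ3A (AT3G08970), a DNAJ co-chaperone of the endoplasmic reticulum, at 0.993, AT1G35660 at 0.992, and TPR5 (AT1G56440), AT2G33585 and AT5G35690 at 0.991 each. ERDJ3A was in DEX at 41.5, 54.9 and 62.1 CPM in Col-0, against 54.2, 55.6 and 60.1 CPM in WUS-GR. The TSA libraries held 3.53, 4.13 and 3.97 CPM of it in Col-0, against 6.14, 7.35 and 3.84 CPM in WUS-GR. Like HSFA2 it was lower in every library with TSA. Among the members, the correlation with HSFA2 was 0.96 for HSP22, 0.94 for HSP17.4, 0.91 for HSP23.6, 0.72 for HSP17.6II and 0.64 for HSP18.2. It was -0.94 for HSP90-2, -0.82 for HSP70, -0.58 for HSP101 and -0.05 for HSP90-1.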

How the data were processed

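RNA of whole seedlings was poly(A)-selected and sequenced from 12 libraries in 4 groups of 3, taken from the sample labels. The authors aligned the reads to TAIR10 with HISAT2 and deposited raw counts per gene from featureCounts. Strand and multi-mapping settings are not given in the sources used here, although the library kit is directional. Genes were tested with edgeR 4.0.16 in R 4.3.3 (quasi-likelihood F-test, TMM, filterByExpr with a minimum count of 10, Benjamini-Hochberg over all genes tested, threshold 0.05). Comparisons of 2 groups used their 6 libraries and the interaction all 12. Total counts of 14810658 to 21578662 set the precision, and intervals cover the spread between replicates. Symbols, positions and lengths came from TAIR10.1, which held 32548 of the identifiers (95%). The named genes were the 10 members, the largest rise and fall of each list, close paralogs and neighbours, and the 5 genes most like HSFA2. The members and lists were chosen with earlier results of these data known. DESeq2 1.42.0, other scalings, filters, a replicate block and leaving out each library were alternatives.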

Additional observations from a re-analysis of the deposited data

Results flagged for a closer look

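The effect of TSA differed between WUS-GR and Col-0, by the interaction test, in 7 of the 10 genes, all positive, beside 17.7% positive and 31.0% in either direction of all genes. The call was lost in 10 of 18 alternatives for HSP17.4, in 8 for HSP101 and in 6 for HSP90-1, and in 0 for the other 4. The difference of the log2 changes was 1.14 for HSP23.6, 0.86 for HSP17.6II, 0.80 for HSP90-2, 0.65 for HSP70, 0.53 for HSP90-1, 0.52 for HSP17.4 and 0.45 for HSP101. For HSP23.6, HSP17.6II and HSP17.4 TSA lowered the transcript less in WUS-GR, and for HSP90-2 and HSP70 it raised it more. HSP101 passed the test of TSA in WUS-GR and not in Col-0. So did HSP90-1, but with library totals alone its TSA difference was -0.14 (adjusted p = 0.155) in WUS-GR and passed at -0.35 (adjusted p = 0.0251) in Col-0.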

How the results depend on the processing

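Of 684 alternative values for the 10 genes, 636 kept their direction and side of the threshold, 30 lost the threshold, 10 gained it and 8 changed sign. With library totals alone, the signs changed for HSFA2 between genotypes in TSA (-0.02), HSP90-1 with TSA in WUS-GR (-0.14) and the HSFA2 interaction (-0.13), and 4 rather than 7 interactions passed. That scaling shifted the median of all genes by -0.24 between genotypes in TSA, by -0.41 for TSA in WUS-GR and by -0.32 for the interaction, and the higher and lower genes became 2775 and 7020, 3855 and 9210, and 1570 and 5736, where TMM gave 4555 and 4698, 6077 and 6502, and 3176 and 2384. Leaving out 1 library gave -0.07 to 0.13 for HSFA2 between genotypes in DEX, -0.82 to 0.15 for HSP18.2 between genotypes in TSA, -0.42 to 0.56 for the HSP18.2 interaction and -0.84 to 0.13 for the HSP22 interaction, the last 3 turning without Col-0 replicate 3 in TSA. The number of interactions passed was 4 to 7 in these fits. Correlations of same-numbered deviations ran from -0.28 to 0.20. Between genotypes in TSA, the same number gave the best match for replicates 1, 2 and 3 (0.08, 0.05 and 0.05). For TSA it did so for replicates 1 and 3 in Col-0 (0.14 and 0.08) and 2 and 3 in WUS-GR (0.04 and 0.20). Between genotypes in DEX it did so for none (-0.03, -0.03 and -0.28). Whether replicate numbers pair the samples was not tested, and the main fits did not use them. With a replicate block, 9155, 9551, 11313, 12567 and 5721 genes passed for genotype in DEX, genotype in TSA, TSA in Col-0, TSA in WUS-GR and the interaction, against 10002, 9253, 11092, 12579 and 5560, and 5, 6, 9, 10 and 7 members, against 5, 6, 7, 10 and 7, HSP90-1 and HSP18.2 being added in Col-0. HSP22 had too few counts for the main fit between genotypes in TSA. Its difference there was 0.08 (SE 0.54, adjusted p = 0.928) in the edgeR test without a filter. In the single fit of all 12 libraries it was 0.06 (SE 0.46, adjusted p = 0.930). With 3 replicates, n limits small differences, and HSP18.2 and HSP22 rest on few counts.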

Other observations

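Other folding systems were counted on the same kind of lists. Of 14 tested genes for folding in the endoplasmic reticulum and its stress response, 13 were higher and 0 lower in WUS-GR with TSA (median log2 difference 0.41), beside 27.0% higher and 27.8% lower of all genes, and 3 higher and 0 lower with library totals alone. In DEX alone 3 were higher and 5 lower (median -0.21), with BZIP60, a transcription factor of the unfolded protein response, lower (-1.30, SE 0.10, adjusted p = 4.12e-06). BZIP60 had the largest interaction of this list (1.59, SE 0.14, adjusted p = 1.37e-06), which passed for 11 of 14 genes, all positive, and for 6 positive and 1 negative with library totals alone. BIP2, an HSP70 of the endoplasmic reticulum, was higher in WUS-GR with TSA (1.12, SE 0.12, adjusted p = 7.64e-06), and its near-identical paralog makes that count uncertain.

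TSA in Col-0 raised 8 of 9 genes of the cytosolic CCT chaperonin, which folds actin and tubulin, and lowered 0 (median 0.65), beside 31.7% and 32.5% of all genes, and 7 rose with library totals alone. In WUS-GR 8 of 9 rose (median 0.64), beside 35.6% higher and 38.1% lower of all genes, and 6 rose and 1 fell with library totals alone. Of 7 genes of the organelle HSP60 chaperonin, 2 rose and 3 fell with TSA in Col-0, a share of 71.4% beside 64.2% of all genes. CPN10, the mitochondrial cofactor, was lower (-1.52, SE 0.10, adjusted p = 2.88e-07) and the chloroplast subunit gene CPN60B higher (0.43, SE 0.09, adjusted p = 0.00180).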
